A study of Mus musculus with 6 samples.

Results

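The Toll-like receptors of the mouse and the co-receptors of lipopolysaccharide (LPS) were examined at the RNA level in macrophages on 2 titanium surfaces. The group held 10 of the 16171 genes in the count table, chosen by symbol: Tlr1, Tlr2, Tlr3, Tlr4, Tlr6, Tlr7, Tlr9, Tlr13, Cd14 and Ly96. Of the 6 libraries, 3 came from cells on titanium with a calcium phosphate nanowire coating (THCaP) and 3 from cells on titanium whose titanate nanowires had been grown by an alkaline heat step (TH). All 6 came from Raw264.7 cells, an established mouse macrophage line labelled wild type (WT), and all received LPS: per the labels' protocols, cells were left on the surfaces for 12 h, given LPS at 1 µg/mL over 2 h and kept for a further 1 d. No library came from cells without LPS, so the response to LPS and the level without it cannot be told apart. The labels do not state whether the libraries of a surface are separate cultures, and the p-values therefore cover only the spread among these libraries, which may be technical.

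Toll-like receptors are membrane proteins that bind molecules of microbes and, through adaptors, activate NF-κB, MAP kinases and interferon regulatory factors. Tlr4 detects LPS at the cell surface together with Ly96 (MD-2), which binds the lipid, and Cd14, which hands LPS over. Tlr2 pairs with Tlr1 or Tlr6 to detect bacterial lipopeptides. Tlr3, Tlr7, Tlr9 and Tlr13 sit in endosomes and detect double-stranded RNA, single-stranded RNA, unmethylated CpG DNA and bacterial ribosomal RNA. MyD88 serves all of these receptors except Tlr3, which signals through TRIF (Ticam1), and Tlr4 uses both adaptors.

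Of the 10 genes, Tlr7 rose on THCaP, 0 fell and 9 did not pass the test. Tlr7 transcripts averaged 105 ± 5.95 CPM (counts per megaread of the library) on THCaP and 79.7 ± 8.84 CPM on TH (SD, n = 3 each), a 1.32-fold difference. In such bulk samples, fewer cells that express a gene and less RNA per cell cannot be told apart. Cd14 and Ly96 did not pass, with fitted levels on THCaP of 0.787 and 0.747 times those on TH. Tlr1, Tlr2 and Tlr9 had fitted folds between 0.972 and 1.01. All 10 genes passed the filter on low counts, and the share called, 1 of 10, stood beside 23.6% of all 11480 tested genes. The threshold for a call was 0.05 on the p adjusted after Benjamini and Hochberg in edgeR's quasi-likelihood test of THCaP against TH, and CPM are scaled by library total and TMM factor (a correction for differences in composition). At an unadjusted p under 0.05 in edgeR, 4 of the 10 passed, 2 higher and 2 lower, against 39.1% of all tested genes. DESeq2 called 1 of the 10 higher and 1 lower, against 30.3% of the 11255 genes it tested.

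Library totals ran from 28000099 to 30317108 counts, and the members held from 65 to 14666 counts in a library. The first principal component of log2 CPM (66.4% of the variance) separated the surfaces, with THCaP libraries between 4.31 (library 3) and 32.3 (library 2) and TH libraries between −20.0 and −14.2. On the second (13.0%), TH library 1 lay far from the rest, at 18.5, while the remaining 5 ranged over −7.41 to 1.11. The macrophage markers Csf1r, Itgam, Cd68, Ptprc, Adgre1 and Spi1 had mean levels of at least 78.9 CPM on each surface, while Mertk was at 0.342 CPM on THCaP and 0.385 CPM on TH. Of 9 macrophage markers, 1, Lyz2, was called (higher), beside 23.6% of all tested genes. At an unadjusted p under 0.05 in edgeR, 3 of the 9 were higher and 2 lower, against 39.1% of all tested genes. DESeq2 called 3 higher and 1 lower, against 30.3%. Csf1r (log2 fold change 0.31, edgeR adjusted p = 0.0504) and Fcgr1 (0.60) pointed higher without an edgeR call, and Cd68 (−0.23) and Ptprc (−0.19) lower. Summed markers of T cells, neutrophils and fibroblasts stayed between 0 and 0.350 CPM in every library. S100a8 had 0 counts in all 6. Cd3e, Ly6g and Pdgfra had 0 in the THCaP libraries, and Mpo, Elane, Col1a2 and Dcn had 0 in the TH libraries. B cell markers summed to between 0.784 and 1.17 CPM on THCaP and between 1.27 and 1.47 CPM on TH, and endothelial markers, nearly all of it Pecam1, to between 2.27 and 4.06 CPM on THCaP and between 4.55 and 5.65 CPM on TH. Dendritic cell markers summed to between 8.56 and 9.63 CPM on THCaP and between 8.94 and 11.6 CPM on TH; of the 2 that could be tested, Zbtb46 was called lower (4.43 ± 0.921 CPM on THCaP and 7.82 ± 0.460 CPM on TH, SD, n = 3 each). The other, Siglech, pointed the opposite way without passing the test (4.42 ± 1.16 CPM on THCaP and 2.25 ± 1.28 CPM on TH, log2 fold change 0.96, edgeR adjusted p = 0.0773). The part of these marker differences in the results below was not tested.

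Promoters of 6 of the 10 genes were found in the RefSeq table (GRCm38.p6), from 250 bases before to 50 bases after the annotated start. Those of Tlr4, Tlr7, Cd14 and Ly96 were not matched. The windows of Tlr2 and Tlr3 are shown because they hold NF-κB motifs, and those of Tlr9 and Tlr13 because these endosomal receptors differ in how their values spread over the libraries. Capitals mark matches to the NF-κB motif or to the PU.1 core GAGGAA on either strand.
Tlr2 (chr3:83841559-83841858, minus strand): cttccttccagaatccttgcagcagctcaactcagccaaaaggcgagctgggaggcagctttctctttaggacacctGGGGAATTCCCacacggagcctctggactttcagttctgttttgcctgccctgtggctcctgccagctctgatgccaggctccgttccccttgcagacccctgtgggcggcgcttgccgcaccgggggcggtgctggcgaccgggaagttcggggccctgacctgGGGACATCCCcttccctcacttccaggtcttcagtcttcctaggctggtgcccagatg
Tlr3 (chr8:45410331-45410630, minus strand): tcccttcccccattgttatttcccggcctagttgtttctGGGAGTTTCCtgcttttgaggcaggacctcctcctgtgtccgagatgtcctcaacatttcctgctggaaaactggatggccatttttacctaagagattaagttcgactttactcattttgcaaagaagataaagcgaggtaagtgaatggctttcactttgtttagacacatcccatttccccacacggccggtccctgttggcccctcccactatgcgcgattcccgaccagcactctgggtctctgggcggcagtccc
Tlr9 (chr9:106222348-106222647, plus strand): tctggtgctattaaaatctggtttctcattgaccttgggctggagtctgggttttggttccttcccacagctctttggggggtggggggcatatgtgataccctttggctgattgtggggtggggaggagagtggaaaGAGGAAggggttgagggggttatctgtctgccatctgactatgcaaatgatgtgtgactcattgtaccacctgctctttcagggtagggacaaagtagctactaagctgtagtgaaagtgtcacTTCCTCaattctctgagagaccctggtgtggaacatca
Tlr13 (chrX:106143025-106143324, plus strand): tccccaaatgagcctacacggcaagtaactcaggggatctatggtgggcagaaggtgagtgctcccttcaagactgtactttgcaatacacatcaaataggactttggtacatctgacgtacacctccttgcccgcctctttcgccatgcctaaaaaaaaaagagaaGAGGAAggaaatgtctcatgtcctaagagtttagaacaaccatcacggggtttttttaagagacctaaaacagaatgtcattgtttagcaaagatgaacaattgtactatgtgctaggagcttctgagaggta
In the Tlr2 window the NF-κB motif matched at 173 and 172 bases before the start, where the matches overlap on both strands, and again at 8 bases before it. In the Tlr3 window it matched once, at 211 bases before the start. The motif was present in 4.51% of all 32851 promoters of this length in the table. The PU.1 core was found in Tlr9 at 112 bases before and 12 bases after the start, in Tlr13 at 83 bases before it and in 1 of the 2 Tlr1 windows at 23 bases before it, against 28.3% of all promoters. An interferon-stimulated response element (GAAANNGAAA) matched at 116 and 110 bases before 1 of the 2 annotated Tlr6 starts, where the matches overlap, and in 3.44% of all promoters. The GENCODE vM21 gene start is the same as the RefSeq one for Tlr9, lies 159 bases upstream for Tlr2 and 71 for Tlr13, within the windows shown, and 700 bases upstream for Tlr3, outside the window. For 1 of the 2 windows of Tlr1 and of Tlr6, the one with the motif in Tlr6 and the one without it in Tlr1, the GENCODE start also lies outside. Such matches describe the letters only, and a link to the levels of the genes or their spread was not tested.

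The question for the LPS receptor complex was whether its parts differed between the surfaces. Tlr4 itself, on chromosome 4 at 66827584 to 66930284 (GRCm38, plus strand), had 46.5, 41.4 and 45.7 CPM in THCaP libraries 1, 2 and 3, against 46.1, 51.3 and 49.8 CPM in TH libraries 1, 2 and 3. The surfaces overlapped, since THCaP library 1 lay above TH library 1. The fitted log2 fold change was −0.14 (95% interval −0.33 to 0.05; edgeR adjusted p = 0.254), so these libraries leave room for a Tlr4 level between 0.794 and 1.04 times that on TH.

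Cd14, a leucine-rich repeat protein anchored to the membrane, lies on chromosome 18 at 36725067 to 36726798 (minus strand) and had 313, 325 and 335 CPM in the THCaP libraries, against 490.1, 365 and 381 CPM in the TH libraries. The surfaces did not overlap, and TH library 1 stood well above the other TH libraries. The log2 fold change was −0.35 (SE 0.11, interval −0.60 to −0.10), and the edgeR adjusted p of 0.0501 just missed the threshold. The call was gained in 6 of 17 alternatives, among them DESeq2 (adjusted p = 0.0167) and edgeR with RLE in place of TMM factors (adjusted p = 0.0495). Without TH library 1 the log2 fold change was −0.20 (edgeR adjusted p = 0.0659), and over all alternatives the adjusted p ran from 0.0167 to 0.388.

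Ly96, on chromosome 1 at 16688051 to 16709611 (plus strand), had 5.36, 4.72 and 6.78 CPM in the THCaP libraries, against 7.15, 7.21 and 8.20 CPM in the TH libraries. Every THCaP value lay below every TH value, with THCaP library 3 nearest to TH. The log2 fold change was −0.42 (SE 0.17, interval −0.79 to −0.05; edgeR adjusted p = 0.0932). Without THCaP library 3 it was −0.58 and passed the threshold (edgeR adjusted p = 0.0219). Apart from Tlr3, Ly96 had the fewest counts, 493 summed over THCaP and 643 over TH.

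**Figure D1:**
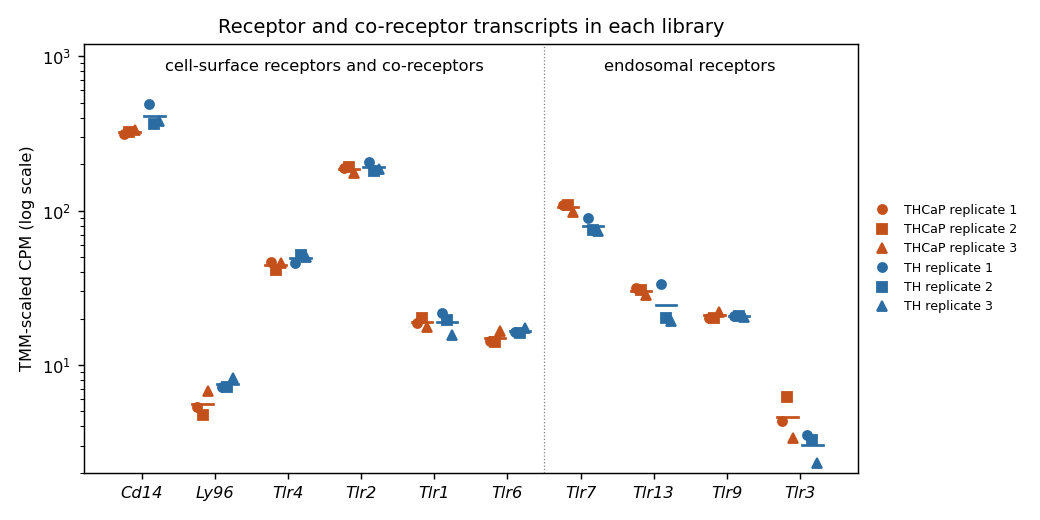
TMM-scaled CPM on a log axis for each of the 10 genes in each library, with THCaP left of TH, a marker for each replicate and a bar at the mean of 3 libraries. Tlr7 lies higher on THCaP in all 3 libraries (98.0 to 109 CPM against 74.0 to 89.9 CPM on TH). TH replicate 1 stands above the other TH libraries for Cd14 and Tlr13, and also for Tlr1, Tlr2, Tlr3, Tlr7 and, by little, Tlr9.

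The lipopeptide receptors were near each other on the surfaces. Tlr2, on chromosome 3 at 83836272 to 83841767 (minus strand), had 190.0, 193 and 176 CPM in the THCaP libraries, against 207, 181 and 186 CPM in the TH libraries. The groups overlapped, with TH library 1 above all THCaP libraries and THCaP library 3 below all TH libraries. The log2 fold change was −0.04 (SE 0.08, interval −0.23 to 0.14, edgeR adjusted p = 0.742), which leaves room for a fold between 0.854 and 1.11. Its partner Tlr1 had 18.8, 20.2 and 17.6 CPM on THCaP, against 21.7, 19.7 and 15.7 CPM on TH, with the TH libraries both above and below all THCaP libraries. The log2 fold change of Tlr1 was −0.02 (interval −0.30 to 0.27). Tlr6, the other partner, had 14.4, 14.1 and 16.7 CPM on THCaP, against 16.3, 16.1 and 17.3 CPM on TH, a log2 fold change of −0.14 (interval −0.38 to 0.10; edgeR adjusted p = 0.374). The signs for Tlr1 and Tlr2 turned with the scaling, to log2 fold changes of 0.04 and 0.01 when libraries were scaled by their totals alone, which moves the median of all tested genes to 0.06.

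Tlr1 (64924679 to 64933563) and Tlr6 (64952031 to 64960097) lie next to each other on the minus strand of chromosome 5 and are similar in sequence. Of the 50-base words in the longest GENCODE vM21 transcript of Tlr1, 15.3% also occur in Tlr6, and of those of Tlr6 12.6% occur in Tlr1 or, for a small part, in Ctsq. Reads from these stretches may be shared or lost in counting, so the separate values of Tlr1 and Tlr6 are less certain than those of the other receptors. Tlr3 shares 1.56% of its words with the antisense gene Gm45542, which overlaps 7.32% of its exonic bases, and without a known strand setting reads of the pair are not separable there. The other 7 genes shared 0 words of this length with other annotated genes and had no exon overlap.

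Among the endosomal receptors, Tlr7 (X chromosome, 167304929 to 167330558, minus strand) had 109, 108 and 98.0 CPM in the THCaP libraries, against 89.9, 75.2 and 74.0 CPM in the TH libraries. The lowest THCaP library lay above the highest TH library. TH library 1 stood above the other TH libraries, and without it the log2 fold change was 0.49 (edgeR adjusted p = 0.0141). The log2 fold change was 0.40 (SE 0.10, interval 0.18 to 0.61; edgeR adjusted p = 0.0197), and 11.6% of all tested genes were called higher. The call was lost without TH library 2 (edgeR adjusted p = 0.088), TH library 3 (0.0921) or THCaP library 1 (0.0854), and against a fold of 1.2 (0.199), while the log2 fold change stayed between 0.34 and 0.49 in all 17 alternatives.

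Tlr13, also on the X chromosome at 106143204 to 106160493 (plus strand), had 31.7, 30.6 and 28.6 CPM in the THCaP libraries, against 33.7, 20.2 and 19.4 CPM in the TH libraries. TH library 1 was the highest of the 6, whereas TH libraries 2 and 3 lay below all THCaP libraries. The log2 fold change was 0.31 (SE 0.19, interval −0.11 to 0.73; edgeR adjusted p = 0.251). Without TH library 1 it was 0.61 and passed the threshold (edgeR adjusted p = 0.0137), and without TH library 2 or 3 it was 0.18 or 0.17, so that the value rests on single TH libraries. TH library 1 is also the library that lay far from the rest on the second principal component.

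Tlr9, on chromosome 9 at 106222598 to 106226883 (plus strand), had 20.3, 20.3 and 22.2 CPM in the THCaP libraries, against 20.9, 20.8 and 20.6 CPM in the TH libraries. Its SD among the TH libraries, 0.145 CPM, was the smallest of the 10 genes. With 3 libraries of 576 to 626 counts, this cannot show that Tlr9 varies less than the others. The surfaces overlapped (log2 fold change 0.01, interval −0.20 to 0.21, edgeR adjusted p = 0.954). Tlr3 (chromosome 8, 45395665 to 45411080, minus strand) was the least abundant member, with 4.31, 6.22 and 3.37 CPM on THCaP, against 3.51, 3.28 and 2.33 CPM on TH. THCaP library 3 lay below TH library 1, so the surfaces overlapped. Its log2 fold change of 0.61, the largest in size of the 10, had an SE of 0.26 (interval 0.03 to 1.18; edgeR adjusted p = 0.111), and it missed the threshold in 13 of 14 alternatives that tested it. The exception was the fit without THCaP library 3 (0.79, edgeR adjusted p = 0.0262), while without THCaP library 2 it was 0.34.

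**Figure D2:**
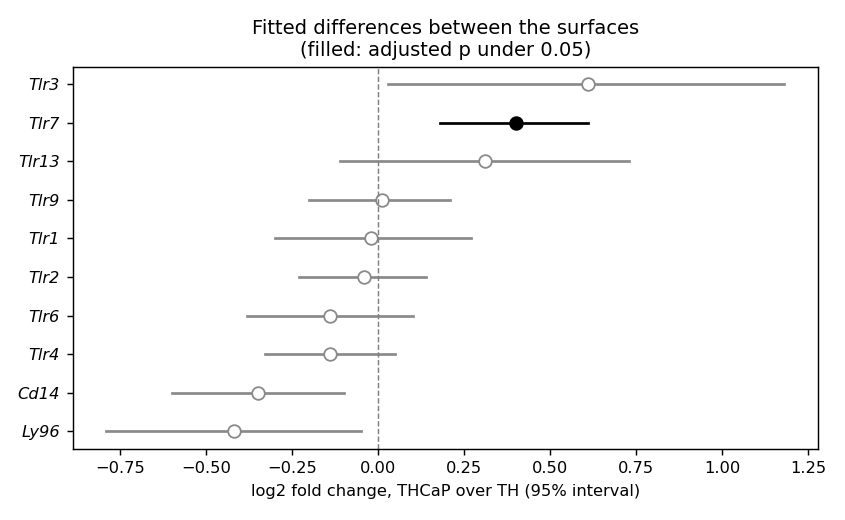
Log2 fold change of THCaP over TH for each gene with its 95% interval, genes ordered by value from Tlr3 at the top to Ly96 at the bottom; filled black marks an adjusted p under 0.05 in edgeR. Tlr7 is the filled point, at 0.40, and the intervals of Tlr3, Cd14 and Ly96 also exclude 0 before adjustment over all genes.

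In 3 of the 10 genes the THCaP and TH libraries did not overlap, Tlr7 with THCaP above and Cd14 and Ly96 with THCaP below. The same was true of 43.4% of all tested genes. The median log2 fold change of the 10 was −0.03, and that of all tested genes 0.0064. The number of members called ranged from 0 to 4 when libraries were left out in turn. It was 0 in edgeR without TH library 2 (6.91% of all genes called), TH library 3 (6.77%) or THCaP library 1 (6.53%), with 2 of the 10 at an unadjusted p under 0.05 in each. It was 2 without TH library 1 (Tlr7 and Tlr13; 21.2% of all genes), 1 without THCaP library 2 (Tlr7; 14.4%) and 4 without THCaP library 3 (Tlr3, Tlr7, Cd14 and Ly96; 36.0%). Both Tlr7 and Cd14 were called by DESeq2 (30.3% of all genes called), with RLE factors (23.6%), with no filter (18.6%), with a filter of 5 CPM in 3 libraries (27.2%) and with the replicate number as a block (25.1%). Against a fold of 1.2, 0 of the 10 and 4.63% of all genes were called, with 1 of the 10 at an unadjusted p under 0.05.

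**Figure D3:**
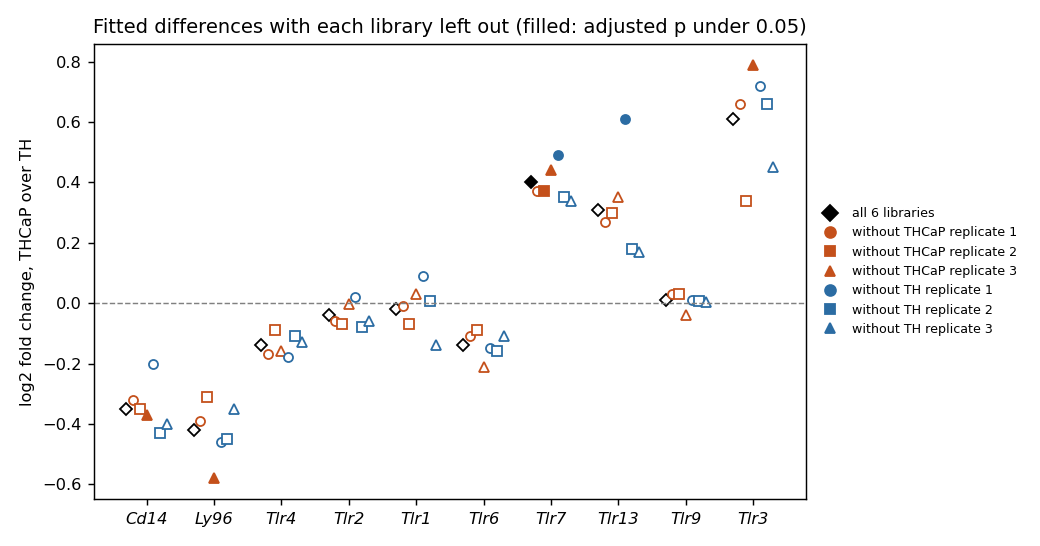
Log2 fold change of THCaP over TH in the fit of all 6 libraries (black diamond) and in the 6 fits that leave out 1 library, in orange for a THCaP and in blue for a TH library; filled symbols mark an adjusted p under 0.05. The points of Tlr13 spread from 0.17 to 0.61 and those of Tlr3 from 0.34 to 0.79, whereas those of Tlr9 stay between −0.04 and 0.03.

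Levels of different genes were compared only per length, on the deposited FPKM (fragments per length of a gene and size of a library). Cd14 was the highest, at 199 ± 6.83 FPKM on THCaP and 244 ± 41.2 FPKM on TH (SD, n = 3 each). Tlr2 followed at 59.8 ± 2.84 FPKM on THCaP and 59.3 ± 4.49 FPKM on TH, then Tlr7 at 19.3 ± 1.08 FPKM on THCaP and 14.2 ± 1.64 FPKM on TH. Ly96 came next at 9.49 ± 1.80 FPKM on THCaP and 12.2 ± 0.880 FPKM on TH. In TH library 3 Ly96 stood above Tlr7, so this pair of neighbours overlapped.

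Tlr13, Tlr1, Tlr9 and Tlr4 formed a band with means over the 6 libraries between 5.56 and 6.83 FPKM, in which neighbours overlapped. Tlr6 (3.19 to 3.78 FPKM over the 6 libraries) and Tlr3 (0.449 to 1.25 FPKM) lay below this band with no overlap. The order inside the band depends on the length that was used: the deposited FPKM imply 8411 bases for Tlr4 and 603 for Ly96, while GENCODE vM21 lists 5556 and 1021 exonic bases. With GENCODE lengths, an alternative added after the values were seen, Tlr4 would stand behind Tlr7 at 8.42 and Ly96 next at 6.42, with Cd14, Tlr2 and Tlr7 still in front and Tlr6 and Tlr3 at the end. The difference of a single gene between the surfaces does not depend on its length.

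Tlr5, Tlr8 and Tlr12 were in the table but too low to test. Tlr5 had 3 counts summed over each surface, Tlr8 had 4 over THCaP and 3 over TH, and Tlr12 had 0 in every library. A count of 0 allows up to 3 counts, at most 0.108 CPM in any of these libraries, and this limit covers counting error only. The symbol Tlr11 was not in the count table, so this gene was not analysed here.

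Ratios per length between members were computed in each library as a description, with no test. The 4 endosomal receptors summed to 0.458, 0.455 and 0.455 of the 4 cell-surface receptors in THCaP libraries 1, 2 and 3, against 0.386, 0.346 and 0.335 in the TH libraries. All THCaP libraries lay above all TH libraries, as they did with GENCODE lengths (0.494 to 0.502 on THCaP and 0.362 to 0.416 on TH). Tlr7 averaged 17.8% of the summed FPKM of the 8 receptors on THCaP, with no overlap with TH. Of single tested genes, 43.4% had no overlap in CPM. Among the endosomal receptors Tlr7 differed most in mean FPKM (19.3 on THCaP, 14.2 on TH). Tlr13 had 7.68 and 5.99, Tlr9 6.13 and 5.88, and Tlr3 0.934 and 0.591. The ratio is therefore not separate from the Tlr7 difference and does not show a shift of the whole class. Tlr2 was the largest component, at 54.9% on THCaP and 58.6% on TH.

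Cd14 stood at 34.1, 39.8 and 37.1 times the level of Tlr4 in the THCaP libraries, against 53.8, 36.1 and 38.8 in the TH libraries, with overlap. Ly96 stood at 1.61, 1.59 and 2.07 times Tlr4 on THCaP, against 2.16, 1.96 and 2.30 on TH, and THCaP library 3 lay above TH library 2. Both ratios depend on the gene lengths: with GENCODE lengths Cd14 stood at 21.6 to 25.2 times Tlr4 on THCaP and 22.9 to 34.1 times on TH, and Ly96 turned to below Tlr4, at 0.620 to 0.807 of its level on THCaP and 0.765 to 0.896 on TH. The ratio of Tlr1 to Tlr2 lay between 0.0998 and 0.106 on THCaP and between 0.0853 and 0.110 on TH. That of Tlr6 to Tlr2 averaged 0.0574 ± 0.00830 on THCaP and 0.0612 ± 0.00516 on TH (SD, n = 3 each). The ratio of Tlr7 to Tlr9, chosen after the values were seen, was 3.36, 3.35 and 2.77 on THCaP, against 2.70, 2.27 and 2.25 on TH.

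**Figure D4:**
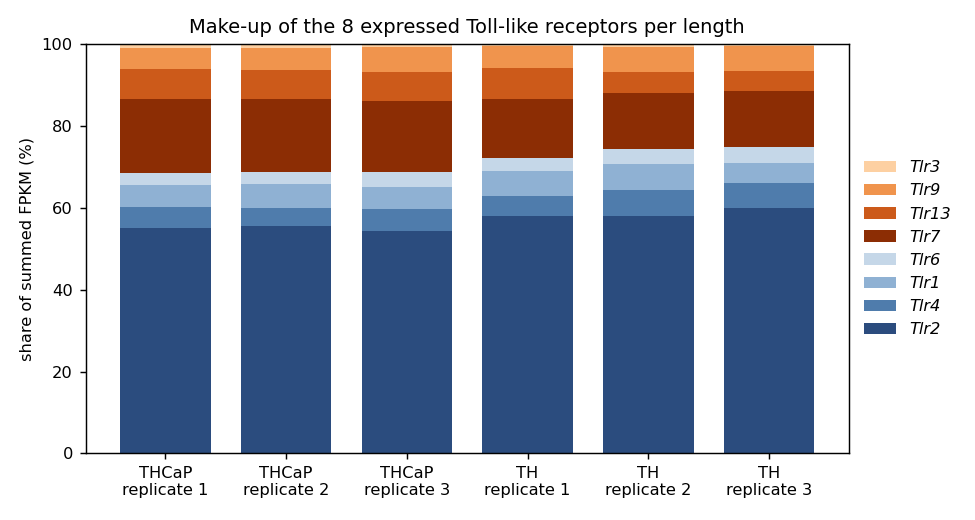
Share of each of the 8 expressed Toll-like receptors in their summed FPKM, in percent, for each library with THCaP on the left; blues are cell-surface and oranges endosomal receptors. Tlr7 takes 17.4% to 18.0% of the sum on THCaP and 13.6% to 14.4% on TH.

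The genes whose pattern over the 6 libraries was most like that of Tlr7 were Clcn4, Cd276 and Rnaseh2a, among 9593 tested genes at a mean level of 5 CPM or more. Likeness was the root mean square difference of log2 CPM after centring each gene on its own mean, and came to 0.0312, 0.0364 and 0.0365. Clcn4 had 41.7, 43.4 and 39.6 CPM in the THCaP libraries, against 34.8, 30.4 and 29.8 CPM in the TH libraries. Those most like Ly96, the member with the lowest fold change at this level, were Tsc22d3 (0.0392), Pla2g6 (0.0427) and Nudt13 (0.0431). Tsc22d3 had 26.3, 23.4 and 31.8 CPM on THCaP, against 34.3, 32.5 and 37.1 CPM on TH.

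Beside the receptors, 10 further lists of tested genes of the pathway were examined, which share some members. In what follows, rose and fell mean called by edgeR, beside 11.6% of all tested genes called higher and 12.0% called lower. Counts in short lists can lie near these shares. Of 13 genes for folding, transport and accessory proteins of the receptors, 2 rose and 2 fell (median log2 fold change −0.04). Unc93b1, which carries the endosomal receptors out of the endoplasmic reticulum, had 323 ± 5.09 CPM on THCaP and 327 ± 37.1 CPM on TH. The receptor chaperone Cnpy3 rose (0.32, SE 0.08, edgeR adjusted p = 0.0271), a call lost without TH library 2, TH library 3, THCaP library 1 or THCaP library 2 (up to 0.119). The endolysosomal transporter Slc15a3 fell (−0.59, SE 0.10), as did Slc15a4 (−0.44), whose call was lost without TH library 2, TH library 3 or THCaP library 1 (edgeR adjusted p up to 0.0921).

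Of 6 cysteine proteases that act in endolysosomes, where endosomal receptors are cleaved, 2 fell and 0 rose (median −0.24). Ctsb, cathepsin B, fell (−0.45, edgeR adjusted p = 0.00849). Ctsl, cathepsin L, fell (−0.27, edgeR adjusted p = 0.0443), a call lost in each fit that left out a library (0.0532 to 0.148) and with the replicate number as a block (0.062), and kept in 5 of 17 alternatives.

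Of 5 tested adaptors, 2 fell and 0 rose (median −0.17). Ticam1, the adaptor TRIF, had 40.4, 38.6 and 47.0 CPM in the THCaP libraries, against 58.3, 63.6 and 64.3 CPM in the TH libraries, and fell by 0.56 on the log2 scale (SE 0.10, edgeR adjusted p = 0.00691). Pik3ap1, an adaptor to phosphoinositide 3-kinase, fell (−0.38), a call lost without TH library 2, TH library 3 or THCaP library 1 (edgeR adjusted p up to 0.0637). Myd88 had 52.1 ± 6.42 CPM on THCaP and 45.9 ± 5.34 CPM on TH (log2 fold change 0.18, edgeR adjusted p = 0.271) and was named after its value was seen, as was Unc93b1.

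Of 16 proximal kinases and ubiquitin ligases, 4 fell and 0 rose (median −0.11). The kinase Irak2 fell the most, with 92.3, 72.8 and 103 CPM in the THCaP libraries, against 178, 197 and 202 CPM in the TH libraries (−1.11, SE 0.12, edgeR adjusted p = 0.00168). Ikbke, an IκB kinase-related kinase, fell by 0.81 and the ubiquitin ligase Peli1 by 0.47 on the log2 scale. Of 15 negative regulators of the signalling, 6 fell and 2 rose (median −0.18). The ribonuclease Zc3h12a (−0.81) and the ubiquitin editor Tnfaip3 (−0.75) fell, and Il1rl1, the interleukin-33 receptor, rose (1.22).

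Of 7 tested genes for other binding and handling of LPS, 1 rose and 1 fell (median 0.02). The scavenger receptor Cd36 rose (0.99, SE 0.15, edgeR adjusted p = 0.00488), and Casp4, the cytosolic LPS sensor, fell (−0.86, SE 0.17). Of 13 other pattern recognition receptors, 7 fell and 1 rose (median −0.51). Those that fell include Nod2, which detects muramyl dipeptide (−0.75), the DNA sensor Aim2 (−0.65) and the RNA sensor Ifih1 (−0.65).

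The target genes had the lowest medians of these lists. Of 9 tested targets of the MyD88 branch, 8 fell and 0 rose (median −0.81), including the prostaglandin synthase Ptgs2 (−1.92, SE 0.21) and the chemokines Ccl4 (−1.22) and Cxcl2 (−0.89). Il1b, tested and not called, averaged 0.399 CPM on THCaP and 0.573 CPM on TH. Il6 and Csf2 of this list were too low to test, at up to 5 counts a library, and Cxcl1 and Il12b were not in the count table. Of 10 tested targets of the TRIF and interferon branch, 6 fell and 0 rose (median −1.03), while Ifnb1 and Ifit3 were too low to test, at up to 17 counts a library. The chemokine Ccl5 had 4.17, 2.71 and 4.09 CPM in the THCaP libraries, against 18.1, 20.2 and 18.6 CPM in the TH libraries, and the antiviral Rsad2 (−2.03) and the transcription factor Irf7 (−1.51) also fell. Of 14 transcription factors, 4 fell and 0 rose (median −0.10), among them Relb (−0.84), Cebpb (−0.64) and Nfkb2 (−0.49). Over all these lists, counted once each and without the receptors, 40 of 106 tested genes fell and 6 rose, against 12.0% and 11.6% of all tested genes. The lists were chosen with earlier results of these data known. This contrast with all genes is therefore a description and not independent evidence that the pathway fell. With library totals in place of TMM, 38 fell and 12 rose. In the 6 lists with 0 genes called higher by edgeR, 4 of 60 genes were higher at an unadjusted p under 0.05, and DESeq2 called 2 higher. No test of one list against another was made.

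**Figure D5:**
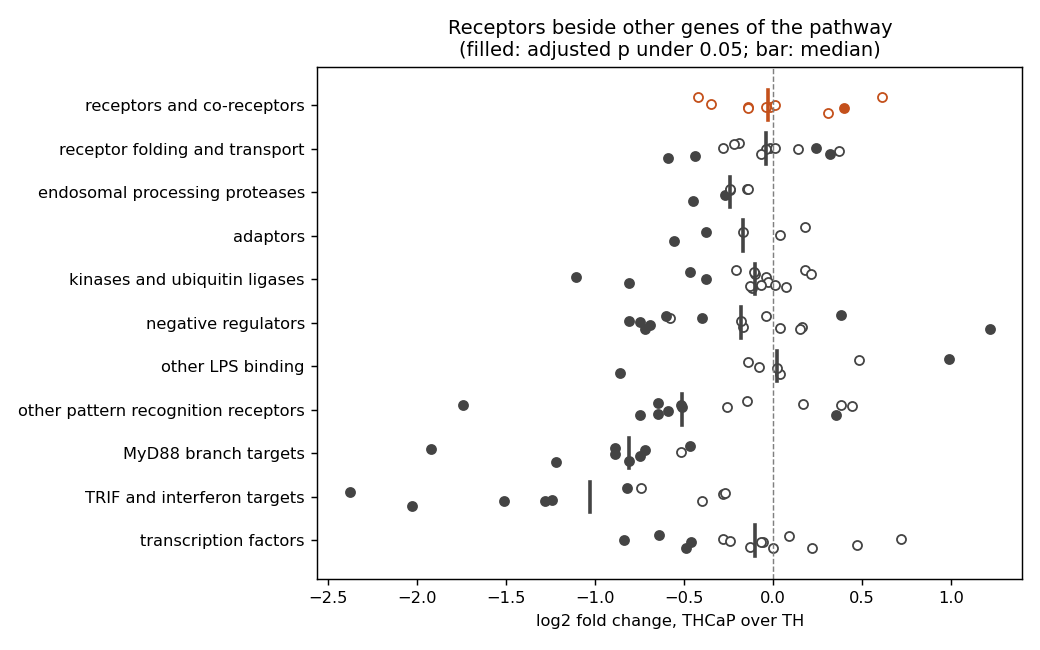
Log2 fold change of THCaP over TH for the 10 receptors and co-receptors (orange, top row) and for the tested genes of each pathway list; filled points have an adjusted p under 0.05 in edgeR and bars are medians. The receptors lie between −0.42 and 0.61, and the MyD88 branch targets between −1.92 and −0.47.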

How the data were processed

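RNA of 6 Raw264.7 samples was analysed from tables the authors deposited. The tools named per the submitters' processing notes are fastp, HISAT2 and HTSeq, with build mm10. Their versions, the annotation and the strand setting are not given in the labels. The deposited counts are whole reads per gene symbol, not normalised. The FPKM were deposited by the authors and were used for levels per length: count and FPKM gave a whole gene length (within 0.01 bases) for 100% of 11079 genes with at least 10 counts in every library.

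The members and pathway lists were chosen with earlier results of these data known. In R 4.3.3, edgeR 4.0.16 (filterByExpr, minimum count 10, minimum total 15; TMM; robust quasi-likelihood F test; no covariate) was fitted to 11480 genes with Benjamini-Hochberg adjustment over all. The standard error is the absolute log2 fold change over the square root of F, and 95% intervals use its degrees of freedom. Every adjusted p without another tool's name is edgeR's. Alternatives used DESeq2 1.42.0, limma 3.58.1, other scalings, filters and pseudocounts, and left out each library. The fit was also run on counts simulated with the dispersions it had estimated from these data, which checks the code and not the calls reported here. From each pathway list the text names at most 3 called genes at 5 CPM or more, those with the largest change. Libraries of a surface differed by more than sampling noise (chi-square per degree of freedom 3.84 to 48.4). Positions are from GENCODE vM21.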

Additional observations from a re-analysis of the deposited data

How the results depend on the processing

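Receptor and co-receptor genes called numbered 1 in the fit as reported. They numbered 2 (Tlr7 and Cd14) with DESeq2, RLE factors, no filter, a filter of 5 CPM in 3 libraries or the replicate number as a block, 0 against a fold of 1.2, and 0 to 4 when libraries were left out in turn. The labels do not say that shared replicate numbers mark a shared batch, so the numbers were not taken as pairs. Same-numbered libraries of the surfaces had deviations from their group means that correlated at −0.0404, −0.11 and 0.104. With the replicate number as a block, the calls over all genes moved to 2881 from 2709. All tested genes called numbered 532 against a fold of 1.2, 1294 on log2(FPKM + 1) without a filter, and 756 to 4165 when libraries were left out. The split was 1904 higher and 1063 lower with library totals, 1762 and 964 on log2(FPKM + 1), and 1333 and 1376 as reported. Pathway genes called, 46 of 106, ranged from 32 (against a fold of 1.2) to 58 (DESeq2) over the 17 alternatives, of which the 3 FPKM scales (36 to 48) and the fold of 1.2 were added for this count after the data were seen; 98 of these genes were tested with the 5 CPM filter and 101 on the filtered FPKM scales.

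The fitted sign changed in no named gene that was called. Tlr1 was at 0.04 (log2) with library totals and on log2(FPKM + 1) with or without a filter, 0.05 on log2(FPKM + 0.1), and −0.14 to 0.09 when libraries were left out, with 0.09, 0.0077 and 0.03 when TH replicate 1, TH replicate 2 and THCaP replicate 3 were the ones omitted. Tlr2 was at 0.01 with library totals and on the FPKM scales, and −0.08 to 0.02 when libraries were left out, above 0 without TH replicate 1. Tlr9 was at −0.00059 with the 5 CPM filter and −0.04 to 0.03 when libraries were left out, below 0 without THCaP replicate 3. The cause was not tested. Of the 27 called pathway genes named, 19 kept their call in every alternative other than the fold tested against 1.2, and 23 kept it without each library in turn. On log2(FPKM + 1) and log2(FPKM + 0.1) with a filter, and with 5 CPM in 3 libraries, Tlr3 was too low to test. Its 65 to 186 counts a library limit what can be said of it.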
